A study of Mus musculus with 4 samples.

Results

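The colony-stimulating factors and the LIF family cytokines are secreted proteins with which activated T cells act on other cells. The 8 genes described here were chosen by their symbols, 5 myeloid growth factors (Csf1, Csf2, Csf3, Il3 and Il5) and 3 cytokines of the IL-6 family (Il6, Lif and Osm), out of 54532 genes in the count table. They were picked with the fold changes of these libraries already known, so their calls are a description and not independent evidence about the family. Each symbol had a single row, and no measured value was needed to decide between rows. Of the 8, 7 were expressed enough to be tested among 13884 genes, and Il5 was not.

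RNA was sequenced from mouse primary T cells at 12 h, in 2 libraries labelled Control and 2 of cells treated with PTC. The labels do not expand this abbreviation, give no dose and do not say whether Control cells received a vehicle. Both groups were cultured with serum, IL2, a T cell growth cytokine, and CD3/CD28 beads, a mimic of antigen and costimulation, so Control cells were stimulated too. The sources used here do not give the strain, the sex and age of the animals, how the T cells were isolated, or whether libraries came from separate cultures or animals. The p-values therefore measure only the spread between these libraries, which may be technical.

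As background, the colony-stimulating factors drive the growth and maturation of myeloid cells. Csf1 encodes M-CSF, which keeps macrophages alive, Csf2 encodes GM-CSF, and Csf3 encodes G-CSF, the main growth factor of neutrophils. IL-3 acts on early progenitors, basophils and mast cells, and IL-5 on eosinophils. IL-6, LIF and oncostatin M share the receptor chain gp130, encoded by Il6st, and signal through JAK kinases and STAT3. T cell receptor signals switch many of these genes on through NFAT, AP-1 and NF-kB, and AU-rich elements in their 3′ untranslated regions shorten the life of the mRNAs.

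Library totals ran from 15458818 to 16639911 counts, and a count of 0 allowed a level of up to 0.184 to 0.195 CPM (counts scaled to library size with trimmed mean of M values factors, TMM), counting error only. The 13 T cell markers summed to 5283 to 5404 CPM in Control and 5867 to 5997 CPM in PTC libraries, with 0 called by edgeR, limma-voom or DESeq2 and 6 at an unadjusted p under 0.05, a mark that 1791 of all 13884 genes tested (12.9%) reached. All 13 T cell markers had a positive log2 fold change (median 0.13), against 6848 of the 13884 genes tested (median -0.0030). The cultures also held transcripts of other cells. The 12 monocyte and macrophage markers summed to 1003 and 1022 CPM in Control and 1496 and 1306 CPM in PTC libraries, most of it Lyz2, the lysozyme gene. The 12 neutrophil and granule markers summed to 204 and 187 CPM in Control and 118 and 141 CPM in PTC libraries. The 8 basophil and mast cell markers summed to 516 and 490 CPM in Control and 438 and 459 CPM in PTC libraries. No marker of these lists was at 0 in all 4 libraries. Bmi1, the Polycomb gene of the study's title, had a mean of 28.5 ± 4.503 CPM without and 29.2 ± 2.23 CPM with PTC (SD, n = 2 each; edgeR adjusted p = 0.950).

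With PTC, Csf3 rose 2.61-fold and Lif 1.76-fold. These were 2 of the 7 cytokine genes tested, 1 in each subfamily, called by edgeR's quasi-likelihood test at a Benjamini-Hochberg adjusted p under 0.05 over all genes. Of all genes tested 1.35% were called, 0.591% higher and 0.763% lower. Since the members were chosen with this contrast known, nothing is read from their count. In each library a gene's RNA is summed over all cells, so fewer cells of a type and less RNA per cell cannot be told apart.

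**Figure D1:**
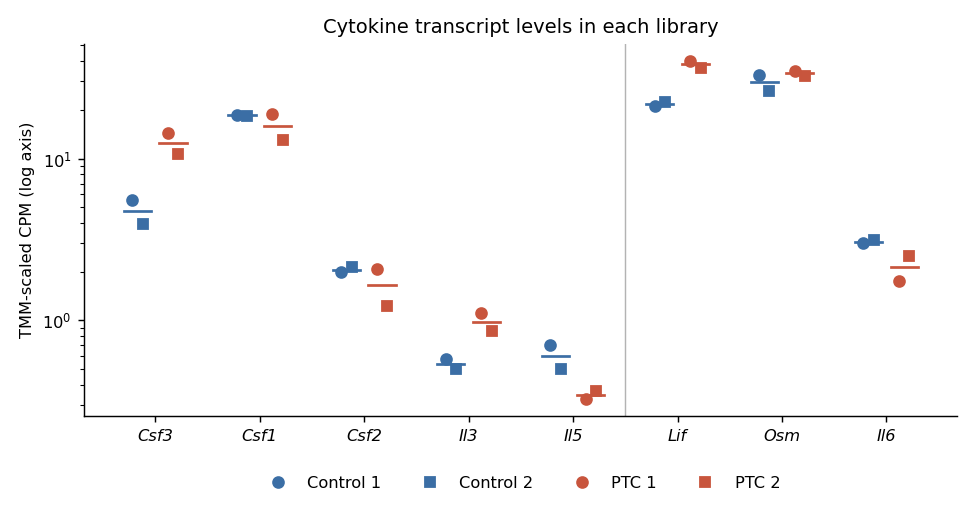
Level of each cytokine gene in each library as TMM-scaled CPM on a log axis, with bars at the group means of 2 libraries; myeloid growth factors stand left of the line and IL-6 family genes right of it. Both PTC libraries lie above both Control libraries for Csf3, Il3 and Lif.

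Csf3 (ENSMUSG00000038067, chromosome 11, 98701263 to 98703629, plus strand, GRCm38) had 87 and 63 counts in Control 1 and 2 and 220 and 173 counts in PTC 1 and 2. Scaled, that was 5.55 and 3.95 CPM against 14.3 and 10.6 CPM. Both PTC libraries lay above both Control libraries, and the lower PTC library held nearly as much again as the higher Control library. On the log2 scale the rise was 1.39 (SE 0.21, edgeR adjusted p = 0.0017). It ranked 23 among the 13884 genes by the size of the rise.

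Lif (ENSMUSG00000034394, chromosome 11, 4257557 to 4272514, plus strand) encodes leukemia inhibitory factor, which also keeps mouse embryonic stem cells undifferentiated. It had 329 and 357 counts in Control and 617 and 594 counts in PTC libraries, or 21.0 and 22.4 CPM against 40.1 and 36.4 CPM. The groups did not overlap, and the libraries within each group lay close together. On the log2 scale the rise was 0.82 (SE 0.11, edgeR adjusted p = 5.68e-04). Csf3 and Lif were each called in all 10 alternative fits, with log2 fold changes from 1.16 to 1.66 for Csf3 and from 0.75 to 0.89 for Lif.

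Of the other myeloid growth factors none passed the test. Csf1 (chromosome 3, 107741048 to 107760469, minus strand) measured 18.7 and 18.3 CPM in the Control libraries and 18.7 and 13.1 CPM in the PTC libraries, so a single PTC library was low. Its log2 fold change of -0.22 (SE 0.15, edgeR adjusted p = 0.589) was 0.019 without PTC 2. Csf2 (chromosome 11, 54247271 to 54249667, minus strand), with 31 and 34 counts in Control and 32 and 20 in PTC libraries, had the same pattern, with PTC 2 alone low. Its log2 fold change of -0.32 (SE 0.37, edgeR adjusted p = 0.776) was 0.017 without PTC 2. At these counts a moderate change of Csf2 was not detectable. The annotated antisense gene Gm12223 overlaps Csf2, and the strand setting of the counting is not given. Gm12223 itself had 2 and 0 counts in Control and 4 and 0 in PTC libraries.

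Il3 (chromosome 11, 54265303 to 54267277, minus strand) had 9 and 8 counts in Control and 17 and 14 in PTC libraries. The groups did not overlap, but the difference was not called (log2 fold change 0.85, SE 0.52, edgeR adjusted p = 0.526). Il3 passed the filter on low counts only through the PTC libraries, the group where it was higher. Il5 (chromosome 11, 53720794 to 53725106, plus strand) had 11 and 8 counts in Control and 5 and 6 in PTC libraries and fell under that filter. The antisense gene Gm12214 shares 21.6% of the 50-base words of the Il5 transcript and had 0 counts in all 4 libraries. In the fit without the filter the log2 fold change of Il5 was -0.78 (edgeR adjusted p = 0.836).

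In the IL-6 family, Osm (chromosome 11, 4236420 to 4241026, plus strand), which encodes oncostatin M, measured 33.0 and 26.1 CPM in the Control libraries and 34.9 and 32.4 CPM in the PTC libraries. The groups overlapped, and the log2 fold change of 0.19 (SE 0.12, edgeR adjusted p = 0.555) was 0.03 without Control 2. Il6 (chromosome 5, 30013114 to 30019981, plus strand) had 47 and 50 counts in Control and 27 and 41 in PTC libraries. Both PTC libraries were lower, but the log2 fold change of -0.52 (SE 0.31, edgeR adjusted p = 0.503) did not pass. Over all 8 cytokine genes, 3 had both PTC libraries above both Control libraries (Csf3, Il3 and Lif) and 2 had both below (Il5 and Il6). Of all genes tested 21.4% had both above and 22.2% had both below.

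**Figure D2:**
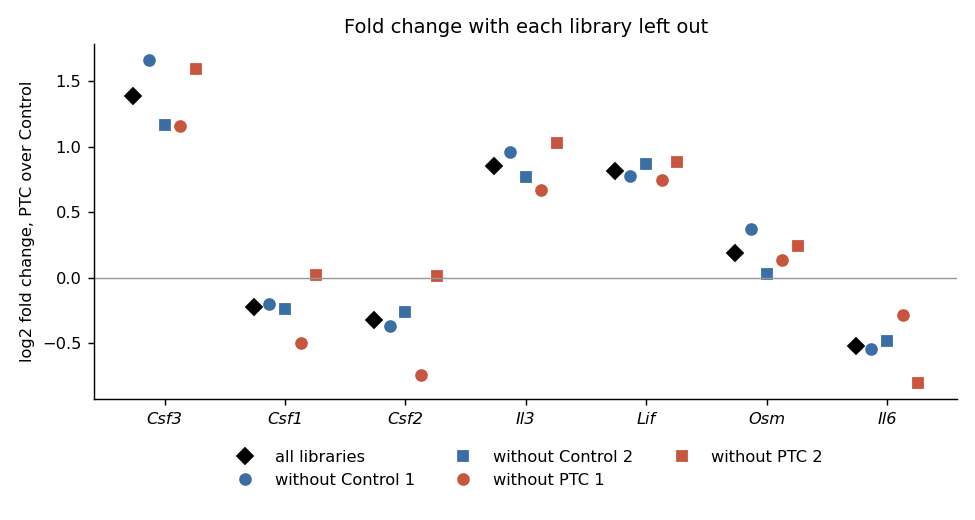
Log2 fold change (PTC over Control) of the 7 tested cytokine genes with all libraries and with each library left out in turn. Csf3 lies between 1.16 and 1.66 and Lif between 0.75 and 0.89, while Csf1 reaches 0.019 and Csf2 0.017 without PTC 2.

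Per length of gene, Osm was the most abundant of the 8 in both groups, at 13.01 ± 2.14 RPKM (reads scaled to gene length and library size) in Control and 14.8 ± 0.789 RPKM in PTC cells (SD, n = 2 each). In Control cells Lif followed at 4.99 ± 0.230 RPKM, then Csf1 at 3.50 ± 0.0575 and Csf3 at 3.36 ± 0.799 RPKM, whose libraries overlapped. Csf2 came next at 2.57 ± 0.138 RPKM, within 1 SD of Csf3. Il6 stood at 1.26 ± 0.0407, Il3 at 0.856 ± 0.0811 and Il5 at 0.392 ± 0.0919 RPKM. In PTC cells Csf3 and Lif shared the second place, at 8.81 ± 1.85 and 8.79 ± 0.599 RPKM. Csf1 and Csf2 followed at 3.01 ± 0.758 and 2.07 ± 0.754 RPKM, whose libraries overlapped, then Il3 at 1.56 ± 0.277 RPKM, which overlapped Csf2, and Il6 at 0.879 ± 0.221 and Il5 at 0.225 ± 0.0197 RPKM.

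Ratios of counts within a library do not depend on library scaling. There were 0.297 and 0.216 Csf3 counts for each Csf1 count in Control and 0.764 and 0.812 in PTC libraries. Lif counts were below Osm counts in both Control libraries (ratios 0.636 and 0.858) and above them in both PTC libraries (1.15 and 1.13). Both ratios restate the calls of Csf3 and Lif and are no further evidence. The Csf3 ratio of PTC 2 was also raised by its low Csf1, at 213 counts against 288 in PTC 1.

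The summed level of the 5 myeloid growth factors was 27.5 and 25.4 CPM in Control and 36.5 and 26.1 CPM in PTC libraries. PTC 2 lay below Control 1 in this sum, through its low Csf1. The 3 IL-6 family genes summed to 57.0 and 51.7 CPM in Control and 76.7 and 71.3 CPM in PTC libraries, without overlap. The PTC to Control ratio of the group means was 1.18 for the growth factors and 1.36 for the IL-6 family, given as values with no test because the members were chosen.

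AU-rich elements are a well-known feature of several transcripts of this family. They are printed for the called genes Csf3 and Lif and for Csf2 and Il6, which were not called. Each is the 30-base stretch of the annotated 3′ untranslated region with the most ATTTA pentamers (GENCODE M21 transcripts, GRCm38), written 5′ to 3′ on the strand of the gene with the pentamers in capitals. They lie at chr11:98702984-98703013 (plus strand), chr11:4272414-4272443 (plus), chr11:54247329-54247358 (minus) and chr5:30019677-30019706 (plus).
Csf3: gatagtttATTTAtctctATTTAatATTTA
Lif: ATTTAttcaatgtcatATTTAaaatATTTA
Csf2: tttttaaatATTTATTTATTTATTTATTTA
Il6: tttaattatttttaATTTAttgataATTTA

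Csf2 had the longest such run, with 5 overlapping pentamers in 30 bases, against 3 in Csf3 and Lif and 2 in Il6. Over the whole untranslated region Csf2 held 28.4 pentamers per kilobase, Csf3 8.97, Il6 5.995 and Lif 2.20, while the median over all genes with an annotated region was 1.35. Il3 held 9.90 (1 pentamer in 101 bases), Il5 6.41, Osm 5.90 and Csf1 1.895 per kilobase, the last near that median. All 8 cytokine genes held at least 1 pentamer, but the share of all genes that do was not counted. The nonamer TTATTTATT, read on the mRNA strand alone, occurred 4 times in Csf2, 2 times in Lif and in none of the other 6 annotated regions. It was present in 7.66% of the 21022 genes with an annotated region. For Il3 only 101 bases were annotated, so the absence there covers that stretch alone. Of the called genes, Lif thus held both motifs and Csf3 the pentamer alone. Among the 980 tested genes with the nonamer, 4 were called higher and 5 lower, with a median log2 fold change of 0.0018. Among the 225 with at least 2 nonamers, Lif and Csf2 included, 3 were called higher and 2 lower, with a median of 0.02. Among all 12048 tested genes with an annotated region 72 were called higher and 96 lower, with a median of -0.0074.

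Of 17 genes for proteins that bind AU-rich elements or destabilise cytokine mRNAs, 1 was called higher and none lower, with a median log2 fold change of 0.05. The single call was Fubp1, whose protein binds single-stranded nucleic acid, which measured 47.8 and 48.6 CPM in the Control libraries and 99.0 and 90.0 CPM in the PTC libraries (log2 fold change 0.97, SE 0.09, edgeR adjusted p = 4.63e-06). Zfp36, which encodes tristetraprolin, a decay factor of such mRNAs, had a log2 fold change of 0.26 and was not called (edgeR adjusted p = 0.115). The list, Fubp1 included, was chosen with earlier results of these data known, and 1.35% of all genes tested were called.

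Promoter windows, 250 bases before to 50 after the RefSeq gene start (GRCm38.p6), were at hand for 6 of the 8 genes, Csf3 and Osm not among them. The Csf2 window (chr11:54249850-54250149, minus strand) lies wholly upstream of the annotated Csf2 start used here, at 54249667. Its matches therefore do not describe the bases next to that start. The windows of Lif (chr11:4257318-4257617, plus strand) and Il6 (chr5:30012864-30013163, plus strand) are shown as a pair of gp130 cytokines of which the first was called and the second was not. Capitals mark matches on either strand to the AP-1 motif TGANTCA, the NFAT core GGAAA, and an NF-kB motif of GGGA and CC with 4 bases of any kind between them.
Lif: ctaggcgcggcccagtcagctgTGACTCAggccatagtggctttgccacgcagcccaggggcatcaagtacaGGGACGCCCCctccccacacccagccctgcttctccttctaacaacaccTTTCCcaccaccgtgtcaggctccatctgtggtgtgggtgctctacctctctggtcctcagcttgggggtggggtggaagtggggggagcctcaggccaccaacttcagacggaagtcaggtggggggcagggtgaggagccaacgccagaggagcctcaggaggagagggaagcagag
Il6: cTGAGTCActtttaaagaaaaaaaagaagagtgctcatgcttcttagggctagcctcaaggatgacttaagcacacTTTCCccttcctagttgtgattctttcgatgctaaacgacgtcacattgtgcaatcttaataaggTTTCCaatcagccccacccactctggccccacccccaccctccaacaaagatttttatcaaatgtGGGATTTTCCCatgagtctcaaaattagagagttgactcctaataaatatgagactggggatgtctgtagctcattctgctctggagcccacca

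Both windows held 1 AP-1 match, a motif found in 7.81% of all 32851 RefSeq windows of this length, and the other 4 held none. The NF-kB motif matched 1 time each in Lif and Csf2, 2 times in Il6 and 3 times in Csf1, and it was present in 20.7% of all windows. The 2 matches in Il6 overlap on opposite strands, as do those at -155 and -154 in Csf1. The NFAT core occurred in all 6 windows and in 61.3% of all windows, and it overlapped an NF-kB match in Csf1, Csf2 and Il6. Neither TATAAA (13.6% of all windows) nor the CRE motif TGACGTCA (1.79%) matched in any of the 6. The matches describe letters, not bound sites.

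Chromosome 11 carries 6 of the 8 genes, with Osm and Lif 16.5 kb apart and Csf2 and Il3 15.6 kb apart, while Il5 lies 522 kb from Csf2. Among all 1144 tested genes of chromosome 11, 13 were called higher and 11 lower, with a median log2 fold change of -0.0062. Within 100 kb of the cytokine genes lay 26 other protein-coding genes, of which 21 were tested. None of them was called by edgeR, limma-voom or DESeq2, the last with no adjusted p for 6. An unadjusted p under 0.05 was reached by 2, beside 12.9% of all genes tested. Next to Csf3, at 0.962 kb, Med24, a Mediator subunit gene, had a log2 fold change of 0.03, and Psmd3, a proteasome subunit gene on the other side, 0.15. On the Lif side, Osm had 0.19 and Castor1, which encodes an arginine sensor, -0.08. Il13, the type 2 cytokine gene 86.1 kb from Il5, had 0.17 (edgeR adjusted p = 0.798).

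**Figure D3:**
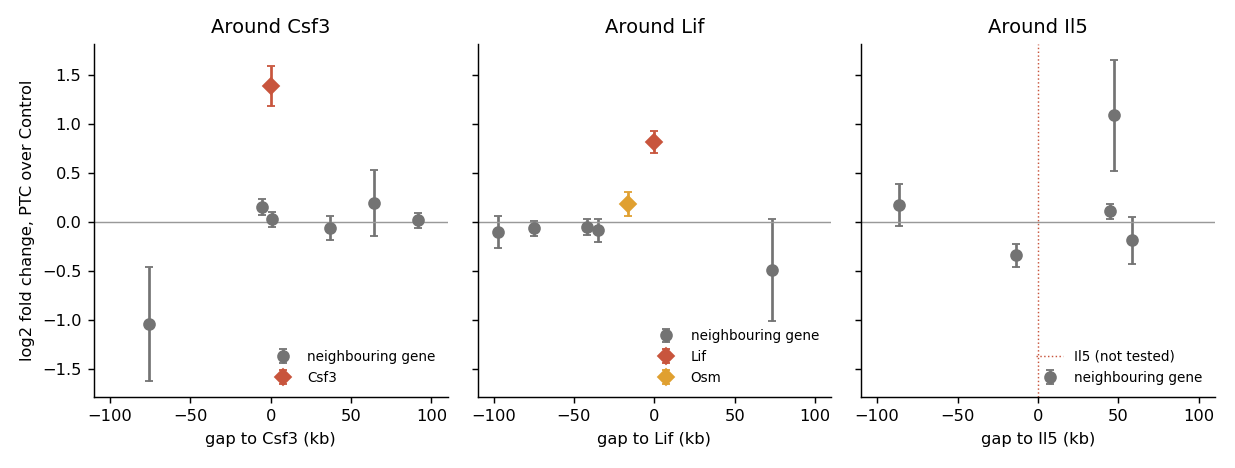
Log2 fold change (PTC over Control, bars are standard errors) of tested protein-coding genes against their gap in kb to Csf3, Lif or Il5, with negative gaps towards lower coordinates. Csf3 at 1.39 and Lif at 0.82 each stand above the neighbours in their own panel, and none of the 16 neighbours plotted was called; Gm17334, near Il5, reaches 1.09 with 5 and 8 counts in Control and 14 and 14 in PTC libraries (edgeR adjusted p = 0.433).

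The receptors decide which cells answer these cytokines. Of the 11 receptor chain genes 10 were tested, 1 was called lower and none higher, and the median log2 fold change was -0.13. An unadjusted p under 0.05 was reached by 5 of them. Of all genes tested 0.763% were called lower and 0.591% higher, and 12.9% had an unadjusted p under 0.05. Csf2rb2, which in the mouse encodes the IL-3-specific relative of the common beta chain, measured 81.7 and 90.1 CPM in the Control libraries and 68.7 and 61.0 CPM in the PTC libraries. It fell to 75.5% of Control (log2 fold change -0.41, SE 0.09, edgeR adjusted p = 0.025). The call was lost without Control 2 (adjusted p = 0.069) and without PTC 2 (0.307). Csf2rb, the common beta chain of the GM-CSF, IL-3 and IL-5 receptors, had a log2 fold change of -0.27 that was not called (edgeR adjusted p = 0.085). It was called without the filter on low counts (adjusted p = 0.043) and without Control 2 (0.034), and without PTC 2 its adjusted p was 0.626. The genes share 19.5% of the 50-base words of Csf2rb2, so their counts depend on how reads that fit both were assigned.

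Csf3r, the G-CSF receptor gene of neutrophils and their precursors, had 56 and 64 counts in Control and 18 and 31 in PTC libraries. Both PTC libraries were lower, opposite to its ligand gene Csf3, with a log2 fold change of -1.30 (SE 0.32) and an edgeR adjusted p of 0.051, just over the threshold. It was called with upper-quartile scaling (adjusted p = 0.047), without the filter on low counts (0.0020) and with the replicate number as a block (0.011). It was not called with RLE, another scaling (adjusted p = 0.057), or by limma-voom (0.059), and DESeq2 gave no adjusted p. With a library left out, its log2 fold change ran from -1.69 without PTC 2 to -0.99 without PTC 1. Without PTC 1 the adjusted p was 0.460. In the same libraries Elane, the neutrophil elastase gene, fell from 18.4 ± 1.91 to 3.55 ± 2.26 CPM (SD, n = 2 each; log2 fold change -2.36, edgeR adjusted p = 4.02e-05). Mpo, the myeloperoxidase gene, fell from 50.5 ± 4.39 to 15.4 ± 5.65 CPM (log2 fold change -1.70, adjusted p = 8.94e-06), and Prtn3, the proteinase 3 gene, from 26.3 ± 0.349 to 14.1 ± 5.04 CPM (-0.90, adjusted p = 0.010, and 0.116 without PTC 1). S100a8, a calprotectin subunit gene of mature neutrophils, rose from 12.5 ± 0.324 to 20.2 ± 1.42 CPM (adjusted p = 0.014). The call of S100a8 was lost without PTC 1 (adjusted p = 0.133). Of the 12 neutrophil markers 11 were tested, 5 with a positive and 6 with a negative log2 fold change, and their median was -0.08. Among them 1 was called higher and 3 lower, beside 0.591% higher and 0.763% lower of all genes tested. The part of neutrophils and their precursors in the values of Csf3 and Csf3r was not tested.

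Among receptors of the IL-6 family, Il6st, the shared gp130 chain, had means of 93.5 ± 8.99 CPM without and 93.6 ± 3.98 CPM with PTC (SD, n = 2 each; log2 fold change 0.0019, SE 0.08, edgeR adjusted p = 0.998). Il6ra, the IL-6 binding chain, had a log2 fold change of 0.22 (adjusted p = 0.453). Lifr, the LIF binding chain, had 31 and 41 counts in Control and 52 and 34 in PTC libraries and overlapped between groups. Osmr, with 12 and 33 counts in Control and 6 and 12 in PTC libraries, differed more within Control than between the group means. Its log2 fold change was -1.32 (SE 0.55, edgeR adjusted p = 0.312). Csf1r, the M-CSF receptor gene of macrophages, had a log2 fold change of -0.21 (adjusted p = 0.384), Csf2ra -0.05 and Il3ra 0.06. Il5ra had 4 and 1 counts in Control and 0 and 3 in PTC libraries and was not tested.

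**Figure D4:**
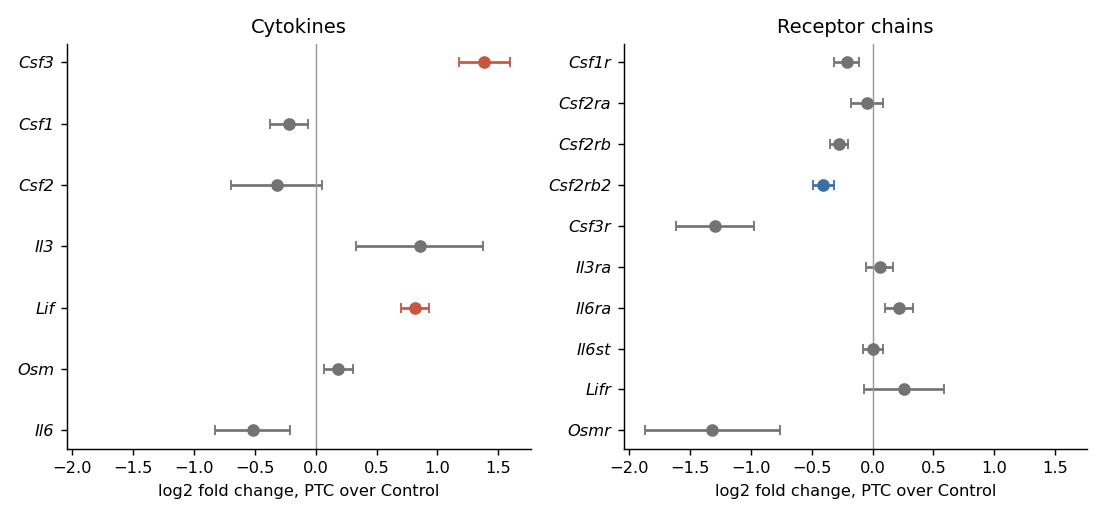
Log2 fold change (PTC over Control) with its standard error for the 7 tested cytokine genes and 10 tested receptor chain genes. Colour marks genes called by edgeR, higher for Csf3 and Lif and lower for Csf2rb2.

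Of 11 other ligands of these receptor families 7 were tested, and none was called by edgeR, limma-voom or DESeq2, which gave no adjusted p for 5. While 12.9% of all genes tested had an unadjusted p under 0.05, 2 of the 7 ligands did. These were Il34, the second ligand of the M-CSF receptor, with 19 and 14 counts in Control and 30 and 34 in PTC libraries, and Il11, a gp130 cytokine, with 17 and 35 against 11 and 13 counts. Clcf1, another gp130 cytokine, had means of 25.5 ± 0.698 CPM without and 29.3 ± 1.51 CPM with PTC (SD, n = 2 each; adjusted p = 0.479).

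Below the receptors, 1 of 17 JAK-STAT genes was called higher and none lower, with a median log2 fold change of 0.02. Of all genes tested 0.591% were called higher and 0.763% lower. The JAK-STAT gene called was Socs1, a feedback inhibitor of cytokine receptors. It measured 136 and 133 CPM in the Control libraries and 176 and 171 CPM in the PTC libraries (log2 fold change 0.37, SE 0.07, edgeR adjusted p = 0.017). The call of Socs1 was lost without PTC 1 and without PTC 2, with log2 fold changes of 0.34 and 0.39. Socs3, the feedback inhibitor of gp130 itself, had a log2 fold change of 0.25 (adjusted p = 0.128). Of 14 STAT3 and STAT5 target genes 0 were called by edgeR, 1 by limma-voom and 2 by DESeq2, and their median log2 fold change was 0.05. An unadjusted p under 0.05 was reached by 5 of them, beside 12.9% of all genes tested. The target list includes Osm, and it shares Socs2, Socs3 and Cish with the JAK-STAT list.

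Of 26 transcription factor genes known to act on cytokine promoters, none was called higher and 2 lower, and the median log2 fold change was 0.02. Nfkb2, an NF-kB subunit gene, fell to 77.5% of Control (log2 fold change -0.37, edgeR adjusted p = 0.017) and Fosl2, an AP-1 subunit gene, to 77.0% (-0.38, adjusted p = 0.039). Both calls were lost without PTC 1 (adjusted p = 0.464 and 0.424) and without PTC 2 (0.090 and 0.123), and that of Fosl2 also without Control 1 (0.123). Over all genes tested the median log2 fold change was -0.0030, with 0.591% called higher and 0.763% lower.

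**Figure D5:**
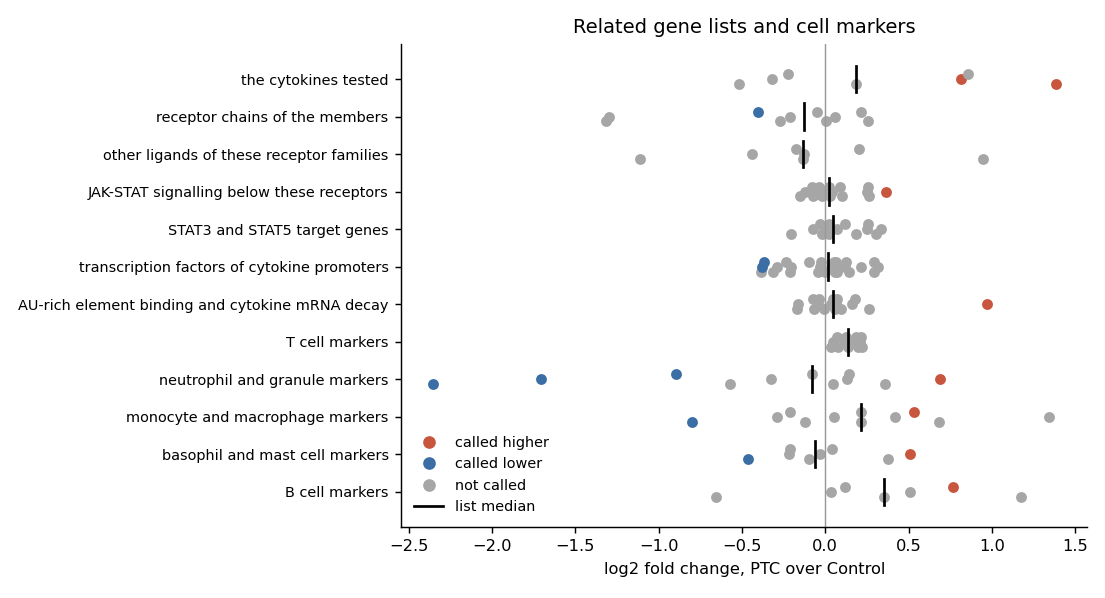
Log2 fold change (PTC over Control) of each tested gene in the related lists and marker lists, with a line at each list's median. The stromal and endothelial markers and the innate lymphoid and NK markers are not plotted. The JAK-STAT, STAT target, transcription factor and decay lists have medians from 0.02 to 0.05, and the neutrophil markers spread from -2.36 to 0.69.

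Csf3 and Lif were also compared with all other genes tested for likeness over the 4 libraries, as the root-mean-square difference of log2 CPM centred on each gene's mean. Closest to Csf3 were Gm6087 (0.10), Igkv1-117, an immunoglobulin segment (0.11), and Fcor (0.11), none of them called. Closest to Lif were Mzb1, a plasma cell and B cell gene (0.03), Got2-ps1 (0.04) and Arg1, the arginase gene of alternatively activated macrophages (0.04), of which Arg1 was called (log2 fold change 0.76, edgeR adjusted p = 0.016, and 0.074 without PTC 1). Gm6087, Igkv1-117, Mzb1 and Got2-ps1 share 91.9%, 49.9%, 75.7% and 96.0% of their 50-base words with other genes, so their counts are uncertain. The shares were 17.7% for Csf1r, 11.5% for Csf3r, 18.5% for Nfkb2, 15.4% for Lyz2, 12.0% for Mpo and 0% for Csf3 and Lif. Over 4 libraries the likeness is a description alone.

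Lyz2, in the same libraries, rose from 875 ± 15.6 to 1265 ± 129 CPM (SD, n = 2 each; edgeR adjusted p = 0.0017, and 0.110 without PTC 1), and Cd14, another monocyte gene, fell from 18.2 ± 3.21 to 10.5 ± 0.166 CPM (adjusted p = 0.013, and 0.058 without Control 1). Of the basophil and mast cell markers, Cpa3, a mast cell carboxypeptidase gene, rose from 45.6 ± 4.53 to 65.1 ± 3.99 CPM (adjusted p = 0.0095, and 0.120 without PTC 1), and Prss34, a basophil and mast cell protease gene, fell from 179 ± 18.4 to 129 ± 7.59 CPM (adjusted p = 0.0076, and 0.152 without PTC 1). The 7 B cell markers summed to 529 and 521 CPM in Control and 556 and 566 CPM in PTC libraries, most of it Ighm. Igkc, the kappa light chain constant gene, was the one B cell marker called, and it rose together with Csf3 and Lif, from 30.2 and 33.6 CPM in the Control libraries to 62.6 and 46.2 CPM in the PTC libraries (log2 fold change 0.77, edgeR adjusted p = 0.0032). It was called in all 10 alternative fits, with an adjusted p of 0.049 without PTC 1. The 8 stromal and endothelial markers summed to 95.4 to 98.8 CPM in Control and 99.1 to 99.5 CPM in PTC libraries, of which the endothelial and leukocyte gene Pecam1 made up 87.1 to 94.4 CPM. None of the 5 tested was called, 1 had an unadjusted p under 0.05 (beside 12.9% of all genes tested), and their median log2 fold change was -0.76. The negative values were those of Kdr (-1.26), Col1a2 (-0.85), Pdgfrb (-0.76) and Col1a1 (-0.51), at 9 to 53 counts a library. The 8 innate lymphoid and NK markers summed to 61.7 to 62.2 CPM in Control and 62.8 to 67.4 CPM in PTC libraries. Of the monocyte and macrophage markers 11 were tested, 7 with a positive and 4 with a negative log2 fold change, 1 called higher and 1 lower. Of the 8 basophil and mast cell markers tested, 3 were positive and 5 negative, with 1 called higher and 1 lower. Among all genes tested 0.591% were called higher and 0.763% lower. Macrophages, mast cells and stromal cells can also make Csf3, Lif, Csf1 and Il6. Which cells of these cultures held the cytokine transcripts was not tested.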

How the data were processed

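RNA-seq read counts per gene were used as the authors deposited them, whole numbers without scaling for library size. Per the submitters' processing notes, CASAVA 1.8, HISAT2 2.0.5 and featureCounts 1.5.0-p3 were used. Not given in the sources used here are the genome build, the strand setting and how multi-mapped reads were treated. Of 54532 gene IDs 54409 were found in GENCODE M21 (GRCm38), and 98.3% of those, all 8 members among them, had the same coordinates. The table holds 2 further count columns that match no sample of this series, and these were not used.

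Samples were grouped by the treatment label. Genes were filtered with filterByExpr (minimum count 10), scaled by TMM and tested on the group alone by edgeR's quasi-likelihood F-test (version 4.0.16, R 4.3.3), with Benjamini-Hochberg adjustment over 13884 genes and a threshold of 0.05. Gene length from the authors' deposited table, in bases, gave RPKM. DESeq2 1.42.0, limma-voom (limma 3.58.1), other scalings, no filter, a replicate block and each library left out were alternatives. The members and lists were chosen with earlier results of these data known. Named were all members and receptor chains, the called neighbours, up to 3 called genes of each other list by size of change, the 3 genes most like Csf3 and Lif, and Bmi1; other genes were chosen after their values were seen. Shared 50-base words were counted between GENCODE transcripts of different genes on either strand. Protein sequences were not used here.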

Additional observations from a re-analysis of the deposited data

How the results depend on the processing

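Csf3 and Lif were the 2 cytokine genes called in each of the 10 alternative fits, with an adjusted p from 1.59e-10 to 0.0064 for Csf3 and from 1.10e-08 to 0.0024 for Lif. With one library left out at a time, the log2 fold change ran from 1.16 to 1.66 for Csf3, 0.75 to 0.89 for Lif, 0.67 to 1.03 for Il3, 0.03 to 0.37 for Osm, -0.80 to -0.29 for Il6, -0.50 to 0.019 for Csf1 and -0.74 to 0.017 for Csf2. Csf1 and Csf2 changed sign without PTC 2, to 0.019 and 0.017, since PTC 2 was the single low library of both. The summed level, PTC over Control, ran from 0.989 to 1.38 for the myeloid growth factors and from 1.302 to 1.44 for the IL-6 family.

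The count of called genes was 188 in the fit reported and 76 (without PTC 1) to 422 (without Control 1) with a library left out, 337 without Control 2 and 160 without PTC 2. Without a filter on low counts it was 432 of 22980 genes tested; the cause was not tested. The other settings gave 178 to 237. In a fit that leaves out a library, the lone library of its group is assumed to vary like the pair. With the replicate number as a block 237 genes were called, 177 of them among the 188, and 2 cytokine genes, with Csf3 at a log2 fold change of 1.39 and Lif at 0.82. The labels do not say that replicate numbers pair cultures, so the numbers were not taken to pair the libraries. The correlation of same-numbered deviations over genes was -0.05. Counts under about 50, as for Csf2, Il3, Il5 and Il6, limit what could be detected in those genes.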
